A study of Rattus norvegicus with 5 samples.

Results

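The epithelial-mesenchymal transition genes described here are 10: the cadherins Cdh1 and Cdh2, the gap junction gene Gja1, the filament gene Vim, the matrix gene Fn1 and the transcription factors Snai1, Snai2, Zeb1, Zeb2 and Twist1. They were chosen by name, not by signal, as the probes that carry 1 of these symbols in the platform annotation, which gave 17 probes of 33849 and 10 genes of 12198. They were read on 5 single-colour CodeLink arrays, 1 array per sample. Of 4 rat hepatocellular carcinoma lines, C5F and C6 are low-metastatic and the pair N1 and L2 is high-metastatic, by the design text. All 4 lines derive from male F344 rats given N-nitrosomorpholine and diethylnitrosamine, with an age of 31 weeks in the labels. The reference was liver of 1 untreated male SD rat aged 50 weeks, so that strain, age, carcinogen and culture all differ between liver and lines and cannot be told apart. Neither liver nor any line was measured again on another array. A value for 1 line therefore has no error of its own, and the error of a class is the spread between its 2 lines.

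In an epithelium, E-cadherin (Cdh1) holds neighbouring cells together. During an epithelial-mesenchymal transition, as it occurs in development, fibrosis and carcinoma, E-cadherin is typically lost while N-cadherin (Cdh2), vimentin (Vim) and fibronectin (Fn1) increase, and factors of the Snail, Zeb and Twist families repress Cdh1 through E-box sequences. Liver departs from this scheme, because normal hepatocytes carry both E- and N-cadherin and secrete plasma fibronectin. Gja1, a connexin, forms gap junctions in stellate cells, fibroblasts and many cultured cells, while hepatocytes mainly use another connexin, Gjb1.

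Signals are given as log2 of the normalised intensity, on which a difference of 1 is 2-fold. A spot was called above or near background by the scanner software, and a spot called irregular was not used. Signals were floored at 1.34. Between 30.6% and 39.2% of probes were above background on an array, and precision is limited by there being only 5 arrays. A fold against a spot near background is a lower bound, set by the dimmest spot that the same array had above background. Of the 17 probes, 9 from 8 genes passed the filter on dim probes (called above background in liver, or else in 2 or more lines). Snai2 and Twist1 had no probe that passed.

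The labelled tissue and cells were compared with cell type markers. In liver 5 of 6 usable hepatocyte markers were above background, Fgb being near background, and their summed linear signal was 21160. The hepatocyte sum was 2871 in C5F, where 4 of 7 markers were above background. It was 15.6 for C6, 62.5 for N1 and 16.9 for L2, where Alb, Ttr, Serpina1 and Cps1 were all near background. Only Tat was above background in N1, and its spots in C6 and L2 were unusable, so the sums of those 2 lines lack it. The liver was a bulk tissue that also held other cells: 5 of 5 macrophage or Kupffer cell markers, 5 of 5 usable endothelial markers and 4 of 7 stellate cell or fibroblast markers were above background. Their summed signals were 3722, 519.7 and 311.8 in liver. In the lines the sums were 52.6 to 77.3 for macrophage, 23.3 to 43.7 for endothelial and 7.44 to 203 for stellate cell or fibroblast markers, with Col1a1 the only stellate cell or fibroblast marker above background, in C5F and N1, and its spots unusable in C6 and L2. Clec4f and Pecam1 were above background in all 4 lines. Cholangiocyte markers summed to 53.4 in liver, without Krt19, whose liver spot was unusable. In the lines they summed to 8.60 to 2291, with Krt19 above background in C5F, C6 and L2. Krt19 was also unusable in N1, and Epcam in C6 and N1. The cholangiocyte sums therefore cover different markers and cannot be set against each other. Lymphocyte markers summed to 67.2 in liver and 22.2 to 30.9 in C6, N1 and L2, with Cd3e the only one above background. The Cd3e spot of C5F was unusable. The part of these cells in any liver value below was not tested, and fewer cells of a type and less RNA per cell cannot be told apart in bulk RNA.

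**Figure D1:**
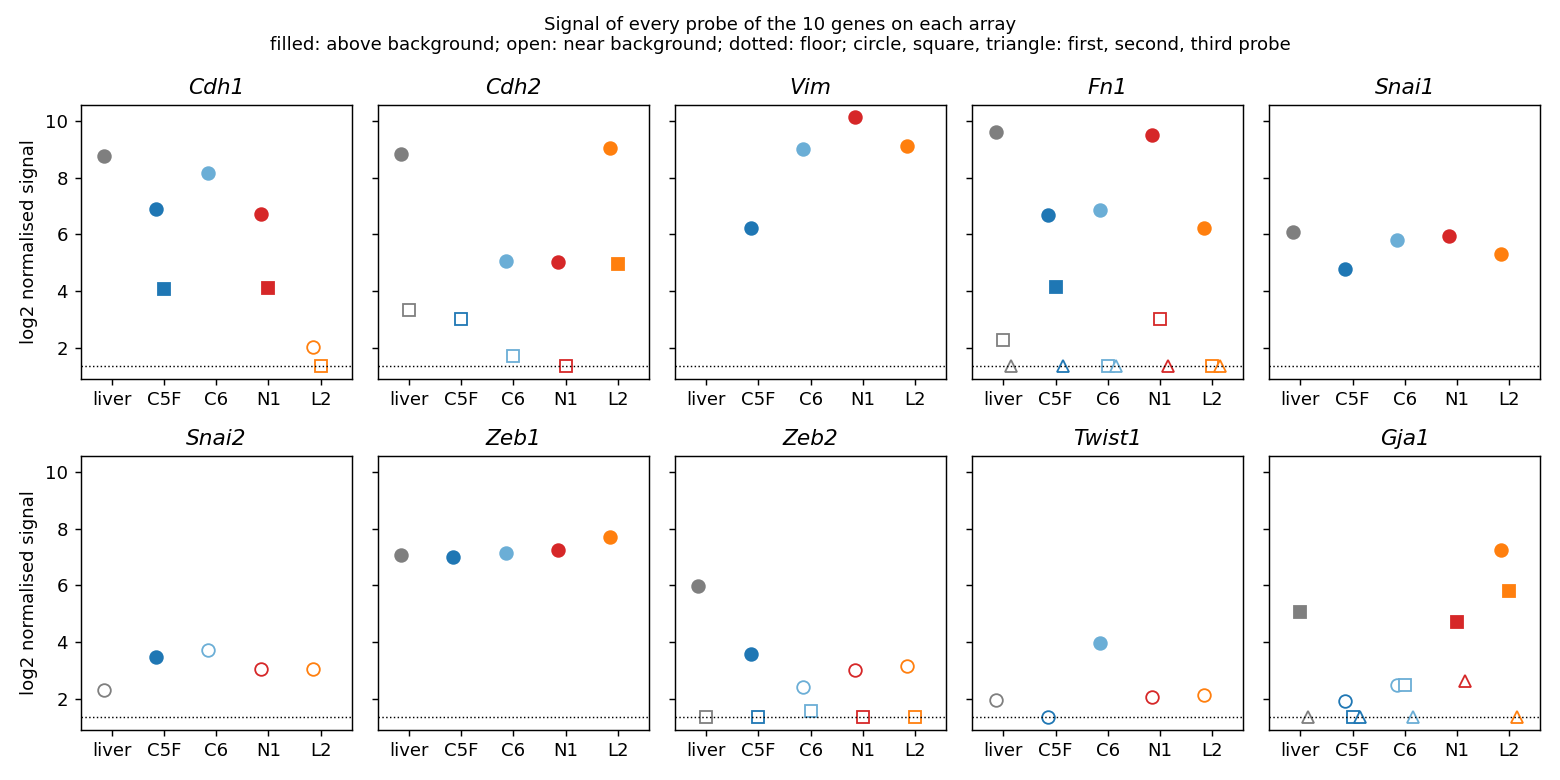
Log2 normalised signal of all 17 probes of the 10 genes (y axis) in liver, C5F, C6, N1 and L2 (x axis), 1 array each. Filled symbols are above background, open symbols near background, symbol shapes tell the probes of a gene apart, the dotted line is the floor, and irregular spots are not drawn. L2 combines Cdh1 near background with the highest Cdh2 and Gja1, N1 has the highest Vim and Fn1 among the lines, and Zeb1 spans less than 1 unit.

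The cadherins set L2 apart from the other lines. On its brighter probe Cdh1 read 8.76 for liver, 6.89 for C5F, 8.17 for C6 and 6.72 for N1, and was near background in L2 at 2.03. C5F, C6 and N1 thus kept a clear Cdh1 signal, and N1, of the high-metastatic class, was 1.12-fold below C5F of the low-metastatic class. L2 was at least 10.6-fold below C5F, at least 25.7-fold below C6 and at least 9.42-fold below N1. The second, dimmer Cdh1 probe stood at 4.09 in C5F and 4.1 in N1 and was near background in L2, without usable spots in liver and C6. Both probes therefore placed L2 lowest and C5F beside N1. With irregular spots kept, the second probe stood at 5.76 in liver and 5.85 in C6, with C6 the highest and L2 the lowest line, as on the brighter probe.

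Cdh2 ran the other way in L2. Its brighter probe stood at 8.83 in liver, 5.07 in C6, 5.01 in N1 and 9.06 in L2, without a usable spot in C5F. L2 was 15.9-fold above C6 and 16.5-fold above N1, and 1.17-fold above liver. C6 and N1, from different classes, differed by 1.04-fold. The irregular C5F spot, when kept, stood at 4.91, near C6 and N1. The second Cdh2 probe was above background in L2 alone, at 4.95, and there at least 2.12-fold above liver, 3.84-fold above C5F, 2.64-fold above C6 and 2.38-fold above N1. Both probes placed L2 above C6 and N1.

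Gja1 was above background in both high-metastatic lines and in neither low-metastatic line. On the probe that passed the filter it stood at 5.06 in liver, 4.69 in N1 and 5.79 in L2, with C5F and C6 near background. Both high-metastatic lines were above both low-metastatic lines, and L2 was 2.15-fold above N1. N1 was at least 3.27-fold above C5F and at least 2.19-fold above C6, and for L2 these bounds were 7.02-fold and 4.70-fold. The mean of N1 and L2 exceeded that of C5F and C6 by 3.33 ± 0.63 in log2 units (SE, n = 2 lines per class), a fitted value that depends on the floor and was 0.73 with an offset of 50. As a bound it was at least 3.92-fold. It did not pass the Benjamini-Hochberg adjustment over all 13741 tested probes (limma adjusted p = 0.67), although its unadjusted p was under 0.05. A brighter Gja1 probe did not pass the filter, because its spots in liver and N1 were irregular. It stood at 7.24 in L2 and near background in C5F and C6, so that L2 was at least 19.3-fold and 12.9-fold brighter. With irregular spots kept it read 6.60 in liver and 6.09 in N1. The remaining Gja1 probe was near background on all 5 arrays.

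Vim separated C5F from the other 3 lines. It read 6.24 for C5F, 9.01 for C6, 10.1 for N1 and 9.11 for L2, without a usable spot in liver. C5F was 6.83-fold below C6, 14.9-fold below N1 and 7.32-fold below L2. C6 of the low-metastatic class and L2 of the high-metastatic class differed by 1.07-fold, so the classes did not overlap but touched. The class difference was 2.00 ± 1.14 (SE, n = 2 lines per class; limma adjusted p = 0.762), and it was 0.63 without C5F. The irregular liver spot, when kept, stood at 6.03. On that setting C5F was 1.24-fold above liver, C6 7.91-fold, N1 17.3-fold and L2 8.30-fold.

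Fn1 separated N1 from the other 3 lines. Its bright probe read 9.60 for liver, 6.66 for C5F, 6.85 for C6, 9.51 for N1 and 6.24 for L2. N1 was 1.06-fold below liver, while L2 was 10.3-fold, C5F 7.62-fold and C6 6.72-fold below it. Within the high-metastatic class N1 exceeded L2 by 9.68-fold, and the classes overlapped. The class difference of 1.12 ± 1.26 (limma adjusted p = 0.841) became −0.51 without N1. A second Fn1 probe was above background in C5F alone, at 4.14, and the remaining one was near background on all 5 arrays. The other probes therefore could not be used to check the N1 value of the bright one.

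Of the transcription factors, only Snai1 and Zeb1 were above background on all 5 arrays. Snai1, Snail, read 6.10 for liver, 4.76 for C5F, 5.79 for C6, 5.94 for N1 and 5.30 for L2. Of the lines, N1 was highest and C5F lowest, and a link between Snai1 and Cdh1 was not tested. The classes overlapped (difference 0.34 ± 0.49, SE, n = 2 lines per class; limma adjusted p = 0.878). Zeb1, a zinc finger repressor of Cdh1, read 7.08 for liver, 6.98 for C5F, 7.13 for C6, 7.24 for N1 and 7.71 for L2. It ranged least over the lines among members above background in all of them, with L2 highest by 1.39-fold over N1 and 1.66-fold over C5F. The class difference was 0.42 ± 0.25 (limma adjusted p = 0.774), with N1 and C6 only 1.08-fold apart.

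Zeb2, the relative of Zeb1, was above background in liver at 5.97 and in C5F at 3.57, and near background in C6, N1 and L2. C5F was 5.29-fold below liver, and C6, N1 and L2 at least 5.33-fold, 4.81-fold and 5.61-fold below it. A second Zeb2 probe was near background on all 5 arrays. Snai2, Slug, was above background in C5F alone, at 3.46. Its C6 spot, near background, read 3.71, and N1 and L2 read 3.06 and 3.04, so the call does not order the lines. Twist1, a helix-loop-helix factor, was above background in C6 alone, at 3.96, and there at least 1.98-fold above C5F, 1.20-fold above N1 and 1.39-fold above L2.

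Setting the high-metastatic against the low-metastatic lines asks which mRNAs differ with the ability to metastasise. No member probe of 9 tested passed limma's adjusted p, and 1 had an unadjusted p under 0.05. Among all 13741 probes tested, 0 passed (0%), with 1005 at an unadjusted p under 0.05. Of the 7 member probes measured in all 4 lines, Gja1, Vim and Zeb1 had both high-metastatic lines above both low-metastatic lines, where 17.5% of all such probes did. Cdh1 had both below, where 19.2% of all such probes did, and 36.7% did either. An exact permutation test of 2 lines against 2 cannot give a two-sided p below 0.333. The Cdh1 difference of −3.15 ± 1.86 (limma adjusted p = 0.768) was −0.83 without L2 and −5.47 without N1. Its fitted size depends on the near-background L2 spot and was −1.38 with an offset of 50. The Cdh2 difference of 1.97 ± 2.25 (limma adjusted p = 0.847) rested on 3 lines, and it was −0.055 without L2. The second Cdh1 probe went from −1.36 to 0.018 without L2, so for Cdh2 and this probe the sign rested on L2.

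**Figure D2:**
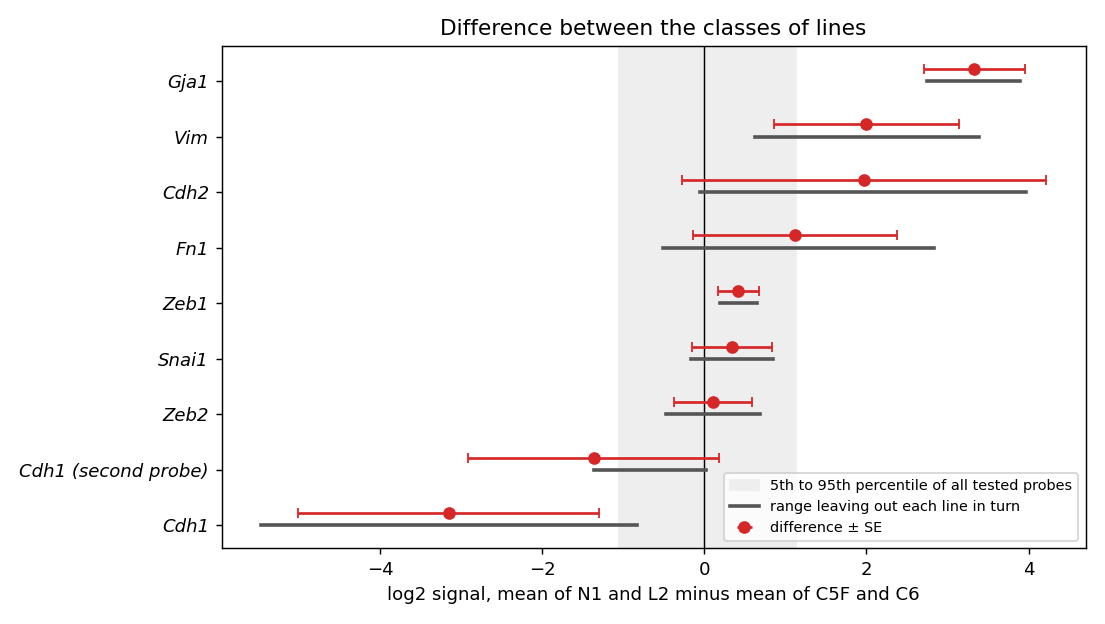
Log2 difference between the mean of N1 and L2 and the mean of C5F and C6 for the 9 tested probes (x axis), with SE bars and, in grey lines, the range when each line in turn is left out. The shaded band is the 5th to 95th percentile of all 13741 tested probes. Gja1 stays between 2.75 and 3.90, while the ranges of Cdh2, Fn1, Snai1, Zeb2 and the second Cdh1 probe cross 0.

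Each line was also described by the members at least 2-fold outside the range of the other 3 lines, over the 7 member probes measured in all 4 lines. C5F had 1 below, Vim, where 2.02% of 9352 probes were below, and 0 above (1.35%). C6 had 1 above, Cdh1, where 0.994% were above, and 0 below (0.716%). N1 had 2 above, Vim and Fn1, where 1.81% were above, and 0 below (0.823%). L2 had Gja1 above, where 2.10% were above, and Cdh1 below, where 2.17% were below. The members therefore did not put N1 and L2 in the same place: N1 stood out by Vim and Fn1 with Cdh1 kept, and L2 by Cdh1 and Gja1, and by Cdh2 against C6 and N1. With irregular spots kept, 5 of 10 member probes in L2 lay outside the other lines: Cdh2 and both measured Gja1 probes above, and both Cdh1 probes below. Of all 16738 probes measured so, 2.41% were above and 2.17% below in L2.

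Promoter sequence is shown for Gja1, Vim and Zeb1, the members with both high-metastatic lines on top. These are the 250 bases before the start site from RefSeq (build GRCr8), where 6 of the 10 members matched. Cdh1, Cdh2, Fn1 and Snai2 had no match, so their promoters were not searched. Capitals mark CAGGTG or its reverse complement CACCTG, the E-box letters bound by Snail and Zeb proteins, and TGAGTCA or TGACTCA, the letters of an AP-1 site, which were searched after the Gja1 sequence had been seen. The regions are chr20:36302314-36302563 (plus strand) for Gja1, chr17:81577011-81577260 (plus strand) for Vim and chr17:56810654-56810903 (minus strand) for Zeb1.
Gja1: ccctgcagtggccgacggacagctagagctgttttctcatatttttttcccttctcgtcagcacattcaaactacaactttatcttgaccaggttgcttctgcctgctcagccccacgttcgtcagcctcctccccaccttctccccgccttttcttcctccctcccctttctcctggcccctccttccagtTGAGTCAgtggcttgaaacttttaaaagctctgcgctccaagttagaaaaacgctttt
Vim: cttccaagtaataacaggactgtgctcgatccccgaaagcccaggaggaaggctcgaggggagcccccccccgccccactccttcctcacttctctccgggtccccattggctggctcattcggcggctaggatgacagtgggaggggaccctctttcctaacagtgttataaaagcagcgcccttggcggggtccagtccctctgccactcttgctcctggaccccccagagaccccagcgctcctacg
Zeb1: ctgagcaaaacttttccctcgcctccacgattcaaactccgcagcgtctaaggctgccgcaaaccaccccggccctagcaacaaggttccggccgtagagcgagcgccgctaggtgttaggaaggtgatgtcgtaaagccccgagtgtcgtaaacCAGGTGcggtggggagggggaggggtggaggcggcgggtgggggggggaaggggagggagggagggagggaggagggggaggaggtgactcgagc
The E-box letters were found in Zeb1, 95 to 90 bases before the start, and in Snai1, 142 to 137 bases before it, and in none of Vim, Zeb2, Twist1 and Gja1. They occur in 15.9% of 33469 promoters of this length. The AP-1 letters were found in Gja1, 58 to 52 bases before the start, and in 4.05% of all promoters. A match describes the letters only.

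The comparison of the lines with liver asks how the carcinoma lines depart from the tissue. Zeb2 was the 1 member probe of 7 tested below the threshold, where 9.38% of 11949 probes were lower, 9.01% higher and 18.4% were called in either direction. Its fitted difference was −2.94 ± 0.54 in log2 units (SE, 4 lines and 1 liver; limma adjusted p = 0.0475). The probe passed the dim filter through liver alone, where it is high, so it had to differ and the p gives no support. Of the lines, 3 were near background, and the fitted size depends on their dim spots: it was −0.95 with an offset of 50 added before log2. The adjusted p was also above the threshold elsewhere, at 0.0753 under 75th percentile scaling, at 0.0533 with irregular spots kept, and at 0.0608 to 0.124 without each line in turn. Without C5F or without C6 no probe of the array passed, against 2198 with all lines, which holds for every call against liver given here. Macrophage and endothelial markers were also far higher in liver, as given above, and their part in the Zeb2 value was not tested.

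The other members tested against liver did not pass. Cdh1 differed by −2.81 ± 2.08 (limma adjusted p = 0.386), Cdh2 by −2.78 ± 2.15 (limma adjusted p = 0.435) and Fn1 by −2.28 ± 1.41 (limma adjusted p = 0.313). The Cdh1 size depends on the near-background L2 spot and was −1.71 with an offset of 50. Gja1 differed by −1.49 ± 0.70 (limma adjusted p = 0.217), Snai1 by −0.65 ± 0.55 (limma adjusted p = 0.444) and Zeb1 by 0.18 ± 0.28 (limma adjusted p = 0.671). Without N1, the line with liver-like Fn1, the Fn1 difference was −3.09. This omission was picked after the values were seen, because N1 lies nearest to liver. The larger difference follows from that choice and gives no support for a lower Fn1 in the lines.

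Counted line by line, member probes at least 2-fold below liver numbered 5 of 6 for C5F, 4 of 7 for C6, and 3 of 7 for N1 as for L2. The shares of all probes were 22.4%, 21.2%, 20.1% and 22.3%. None was at least 2-fold above liver in any line, where 24.7%, 23.7%, 23.7% and 22.2% of all probes were. Vim was not counted, because its liver spot was irregular, and with that spot kept it was over 2-fold above liver in C6, N1 and L2, as given above. The second Cdh2 probe, at least 2.12-fold above liver in L2, was not counted because it did not pass the filter. All 7 member probes counted here were above background in liver, which limits what can lie above it. It also let all of them be called lower, which probes near background in liver, counted in the shares, could not be. The shares are therefore no like comparison for the lower counts. C5F was lower for Cdh1, Fn1, Snai1, Zeb2 and Gja1. C6 was lower for Cdh2, Fn1, Zeb2 and Gja1, N1 for Cdh1, Cdh2 and Zeb2, and L2 for Cdh1, Fn1 and Zeb2.

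**Figure D3:**
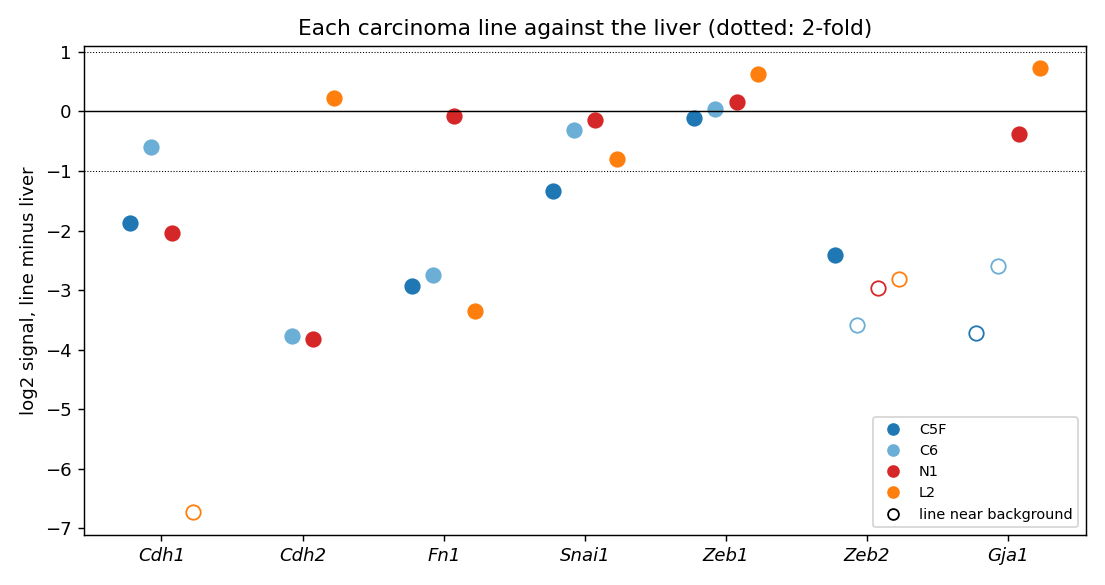
Log2 signal of each line minus liver (y axis) for the 7 member probes with a usable liver spot and past the dim filter. Open symbols are lines near background, whose values are set by the floor or the dim spot and are no measured size. L2 lies near liver for Cdh2 and N1 near liver for Fn1.

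Related genes were counted from lists. None of the genes of these lists passed limma's adjusted p between the classes, and the median difference of all tested probes was 0 between the classes and 0.15 against liver. In the TGF-beta pathway list, which drives the transition in many epithelia, 7 of 8 tested genes had the higher mean in the high-metastatic class (median 0.65). Of its 5 genes measured in all 4 lines, 3 had both N1 and L2 above both other lines and 0 had both below. The shares of all such probes were 17.5% and 19.2%. Smad7, the inhibitory Smad, read 4.51 for C5F, 4.96 for C6, 5.90 for N1 and 6.60 for L2. Against liver 0 of 6 passed (median 0.27). Smad3, a signal-transducing Smad, read 6.58 for C5F, 8.14 for C6, 8.0 for N1 and 8.39 for L2. The receptor Tgfbr1 stood at 7.17 in C5F, 6.70 in C6 and 8.21 in L2, its N1 spot being unusable. In the list of other transition factors, 3 of 3 tested genes had the higher mean in the high-metastatic class (median 0.81). Of the 2 measured in all 4 lines, 1, Id1, had both N1 and L2 on top and 0 had both lowest, beside the same shares. Against liver 2 of 3 rose (median 2.82), where 9.01% of all tested probes did. Id1, an inhibitor of helix-loop-helix factors, rose by 2.82 ± 0.26 (limma adjusted p = 0.0169). Fosl1, an AP-1 subunit, rose at least 10-fold (limma adjusted p = 0.0427). Fosl1 was near background in liver and entered the test through the lines alone, where it is high, so its p gives no support. Id1 was named after its values were seen. Sox4, a further factor, was above background in C6 at 5.48 and L2 at 7.01, the 2 lines with a usable spot. Id2, of the same family as Id1, was near background in C6 and stood at 3.67 to 4.35 in the other lines.

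Of the mesenchymal list, 4 of 8 tested genes had the higher mean in the high-metastatic class (median 0.36). In this list 1 gene, Sparc, had both N1 and L2 above both other lines, and 2 had both below. The shares of all probes measured in the 4 lines were 17.5% above and 19.2% below. Sparc, a matricellular protein, was highest of the lines in L2 at 7.72, with 6.55 in N1, 3.65 in C5F and near background in C6, while liver stood at 9.26. Mmp14, a membrane-bound protease, stood at 7.05 in L2 and near background in C5F, C6 and N1. S100a4, a motility-linked calcium-binding protein, was lowest in C5F at 9.76 and highest in N1 at 13.1, the same end lines as for Vim. Against liver, where 9.38% of all tested probes fell and 9.01% rose, 3 of 8 fell and 0 rose (median −1.71). These were Thy1, by 1.92 ± 0.21, Pdgfrb, at least 4.65-fold, and Lox, at least 8.09-fold, with limma adjusted p-values of 0.0218, 0.00703 and 0.0321, all named after their values were seen. Pdgfrb and Lox were near background in all 4 lines and entered the test through liver alone, so their p-values give no support. Thy1 was above background in liver and in C5F, C6 and L2. Pdgfrb is itself a stellate cell marker, and the sums of such markers are given above.

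Of the epithelial junction list, 3 of 10 tested genes had the higher mean in the high-metastatic class (median −0.22). Of the 9 measured in all 4 lines, 0 had both N1 and L2 above both other lines and 2 had both below. The shares of all such probes were 17.5% and 19.2%. The polarity gene Crb3 stood at 5.19 in C5F, 6.44 in C6 and 7.26 in N1, and was near background in L2, as Cdh1 was. Epcam, an epithelial adhesion molecule, was above background in C5F at 6.21 and near background in L2, without usable spots in C6 and N1. Not all epithelial genes were low in L2: the membrane protease St14 was highest there at 4.96. The keratins Krt8 and Krt19, picked after their values were seen, were above background in L2 but lowest there among usable lines. Krt8 stood at 9.03 in L2 and 9.36 to 10.2 in the other lines. Krt19 stood at 9.14 in L2, 10.4 in C6 and 11.1 in C5F. Genes of this list at least 2-fold below liver numbered 4 of 8 in L2, 1 of 7 in C5F, 1 of 6 in C6 and 2 of 6 in N1, where the shares of all probes were 22.3%, 22.4%, 21.2% and 20.1%. The counts cover different genes, because unusable spots differ between the lines. Of the lines, Cldn1 was usable in L2 alone and Epcam only in C5F and L2, and both were below liver in L2. The remaining L2 genes, Cldn3 and Rab25, were also at least 2-fold below liver in N1. Probes near background in liver, counted in the shares, could not be called lower, so the shares are no like comparison. The difference between lines was not tested. Against liver 0 of 6 passed limma's test in either direction (median −0.44).

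The remaining lists were smaller. The catenin Ctnna1, which links cadherins to actin, read 8.62 for C5F, 8.83 for C6, 9.43 for N1 and 10.1 for L2, and the catenin list had 2 of 4 tested genes with the higher mean in that class (median 0.26), Ctnna1 and Jup. Jup, plakoglobin, ranged over 0.83 between C5F, C6 and N1, and Ctnnb1, beta-catenin, over 0.77 between C5F, C6 and L2, the lines with usable spots. Of the 2 catenins measured in all 4 lines, 1, Ctnna1, had both N1 and L2 on top and 0 had both lowest. The shares of all such probes were 17.5% and 19.2%. Of other cadherins 2 of 5 had the higher class mean (median −0.09). Both N1 and L2 were on top in 0 and lowest in 1, Cdh17, where the shares of all probes were 17.5% and 19.2%. P-cadherin, Cdh3, was above background in C6 at 4.67 and L2 at 5.86. Cdh13, an anchored cadherin of endothelium, was above background in C5F alone among the lines, at 4.72, and was brighter in liver. Cdh17, liver-intestine cadherin, was lowest of the lines in L2 at 8.76 and highest in C6 at 10.9. Of other connexins 3 of 4 had the higher class mean, Gja4 among them by only 0.001 (median 0.11). The 2 measured in all 4 lines, Gja5 and Gjc1, both had N1 and L2 on top, beside the same shares. Gjc1 was above background in N1 and L2 alone, at 4.02 and 4.14, and entered the comparison through these 2 lines alone. Its class difference and its place on top are therefore a description. Gjb2 stood at 6.12 in C5F and 4.49 in N1 and was near background in L2, its C6 spot being unusable. Gja5 ranged over 0.42 between the lines. Against liver 0 of 1 catenin, 0 of 5 cadherins and 0 of 3 connexins passed (medians −0.46, 1.22 and −0.71). With dim spots at their bound the cadherin median was 0.026.

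Of the epithelial state regulators 2 of 4 had the higher class mean (median 0.36). Of the 3 measured in all 4 lines, 1, Klf5, had both N1 and L2 on top and 0 had both lowest. The shares of all such probes were 17.5% and 19.2%. Ovol2, which represses mesenchymal genes, was above background in C5F at 4.21 and N1 at 5.66, and near background in C6 and L2. Klf4 stood at 3.89 in C5F, 8.43 in C6 and 7.11 in L2, without a usable N1 spot, and Klf5 was highest in N1 at 5.61. Against liver 0 of 4 passed (median 2.36). Of the fibronectin receptors 2 of 5 had the higher class mean (median −0.09). Of the 3 measured in all 4 lines, 0 had both N1 and L2 on top and 0 had both lowest, beside the same shares of 17.5% and 19.2%. The integrin subunits Itgb5, Itgb3 and Itgb1 ranged over 1.18, 1.03 and 0.79 between their usable lines. Itgb5 was near background in C6, and Itgb1 in C6 and N1, so dim spots limit these ranges. The Itgb3 spot of C6 was unusable. Against liver 1 of 4 fibronectin receptors fell, where 9.38% of all tested probes did (median of the list 0.77, and −0.03 with dim spots at their bound). This was Itga4, at least 1.89-fold (limma adjusted p = 0.0216), named after its values were seen. Itga4 was above background in liver alone and entered the test only through it, so its p gives no support.

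**Figure D4:**
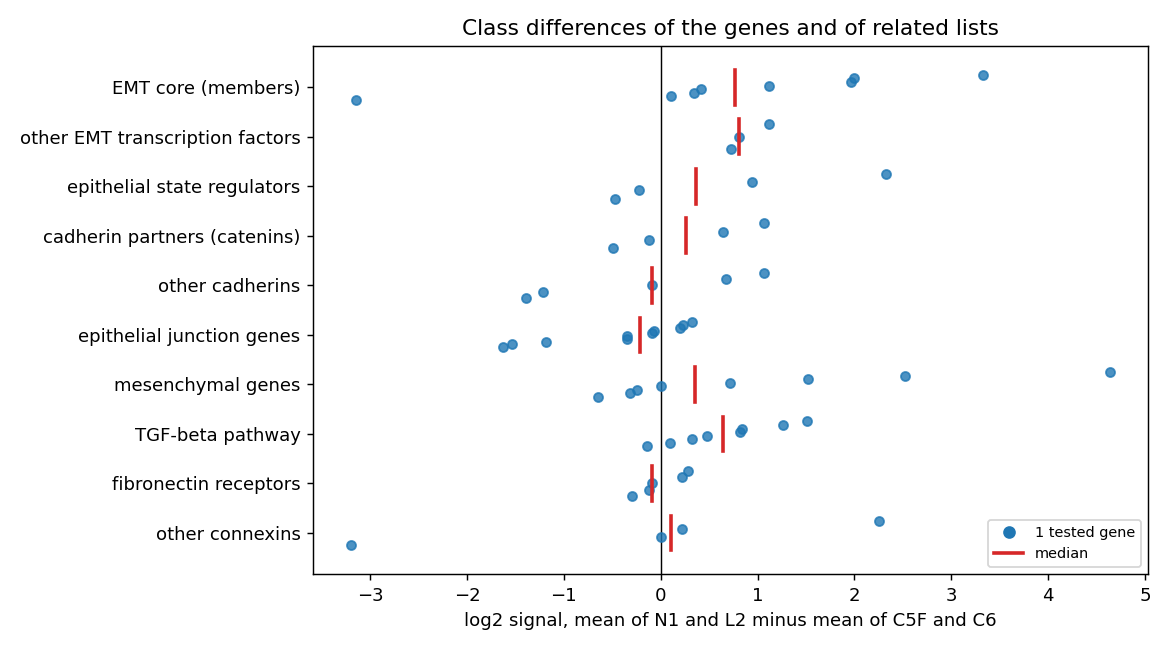
Log2 difference between the mean of N1 and L2 and the mean of C5F and C6 (x axis) for each tested gene of the 10 genes described here and of 9 related lists, with the median of each list in red. Values of genes near background in a class are fitted and no bounds. The medians lie between −0.22 and 0.81, and single genes of a list lie on both sides of 0 in all but 1 list.

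Genes with the profile most like a member were sought among 4001 genes usable on all 5 arrays, as the root mean square distance of log2 values centred on their own mean over the 5 arrays. With 5 arrays and so many genes, close profiles are a description only. Cdh1 had no close match: Bin2 lay at 0.71, Slc22a23 at 0.81 and Cpn1 at 0.99, all 3 lowest in L2, against a Cdh1 range of 6.73. Fn1 lay nearest to Cyp4b1 (0.32), Fbp2 (0.35) and Retnlg (0.38), which share its high liver and N1 values. Gja1 lay nearest to Zfp775 (0.43), Smarca2 (0.52) and Cst3 (0.54), which are higher in N1 and L2 than in C5F and C6. Snai1 lay nearest to Snrk, Sik1 and Sc5d (0.11 to 0.14), Zeb1 to Hip1, Pan3 and Stau2 (0.083 to 0.088), and Zeb2 to Rida, Cyb5a and Tmem205 (0.17 to 0.25). Vim and Cdh2 could not be searched because each lacked a usable spot.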

How the data were processed

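Scans were quantified in CodeLink Expression Analysis, per the file headers. The deposited raw intensity has background already subtracted, and the deposited normalized intensity is the raw intensity over the array median, and the deposited series values are identical to it (largest difference 0). Of 35129 spots, 1280 controls were left out. Spots called irregular (2274 to 2946 discovery probes per array), contaminated or masked were set to missing. Raw intensities were quantile normalised (limma 3.58.1, R 4.3.3, version 1.17.8 of data.table), taken to log2 with a floor of 2.53, the median of near-background spots. Of 33849 probes, 16377 passed the filter. Liver and the 2 classes were the groups of a single limma model over the 5 arrays (eBayes, at most 2 residual degrees of freedom, prior 1.46), adjusted by Benjamini-Hochberg over all tested probes at 0.05. Probes without a residual degree of freedom were not tested. The single liver was taken to vary like the lines of a class. The fit was tested on simulated data.

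Symbols came from the platform annotation, updated through RefSeq (GRCr8), where 12177 of 12201 gene numbers matched. Of the probes 16753 had 1 gene, 165 several and 16931 none. A related gene was represented by its brightest passing probe. All probes of a member were named. In a list, the naming rule took at most 3 genes, those with the widest range over the lines. Only genes past the dim filter and above background in a line were eligible, so wider genes that failed the filter were left out. Genes named beyond the rule were those called against liver, the keratins Krt8 and Krt19, Cldn1, Cldn3, Rab25, Gja4 and those under other observations. Up to 3 alike genes were named per searchable member. The members, lists and rules were chosen with earlier results of these data known. In the 2-fold counts the brighter side had to be above background, which for a line below the others means all 3 others. Robust fits used statmod 1.5.0. Figures were drawn with matplotlib 3.10.9 and pandas 2.3.3 in Python 3.11.15.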

Additional observations from a re-analysis of the deposited data

How the results depend on the processing

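No paired analysis was possible because no label numbers the lines or pairs them. The alternatives were scaling to the median of probes above background or to the 75th percentile, the deposited normalized intensity, an offset of 50, no or a stricter filter, irregular spots kept, a lower floor, eBayes with trend or robust, and leaving out each line. The class count of 0 held under all of them. The 2198 probes called against liver were 3335 with irregular spots kept and 0 to 617 without each line in turn, 0 without C5F or C6, 590 without N1 and 617 without L2. Median scaling moved the median difference of all probes to −0.12 between classes and 0.29 against liver. Against liver all scalings kept the direction of the members.

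The call of Zeb2 against liver was kept with the offset (adjusted p = 0.0179, difference −0.95 in place of −2.94), the lower floor (0.048), trend (0.0481) and robust fits (0.042), and lost in the other alternatives that measured it (0.0533 to 0.125). Its class difference turned to −0.025 under median scaling and was −0.47 to 0.68 without each line in turn. Leaving out each line gave class differences of −0.055 to 3.97 for Cdh2, −1.36 to 0.018 for the second Cdh1 probe, −0.51 to 2.84 for Fn1 and −0.17 to 0.85 for Snai1, each turning sign. The cause was not tested.

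Member probes at least 2-fold from liver numbered 5 in C5F, and 2 with the offset or 8 with irregular spots kept. They went from 3 to 5 in N1 and in L2 with irregular spots kept. Probes outside the other 3 lines were 2 in C5F and 2 in C6 without a filter, 2 in C6 and 5 in L2 with irregular spots kept, and 1 in N1 and 1 in L2 with the offset. Setting dim spots to their bound, chosen after seeing the data, changed none of these counts. Dim probes (Snai2, Twist1, Zeb2) limit what can be said of these factors.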

Other observations

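Some related genes outside the naming rule were above background in 1 line only. The ligand gene Tgfb1 was above background in L2 alone of the 5 arrays, at 4.79, and read 3.56 in N1, 2.40 in C6 and 1.96 in C5F, all near background. Tgfb2 was likewise above background in L2 alone, at 4.68, with 3.15 in N1. Lef1, at 6.94, Tcf4, at 5.06, Bmp7, at 4.37, and Ltbp1, at 3.82, were also above background in L2 alone. The Lef1 spot of C5F and the Ltbp1 spot of C6 were unusable. A further ligand gene, Tgfb3, was above background on all 5 arrays. Of the lines it was highest in N1, at 5.02, and read 4.74 in L2. Esrp1, an epithelial splicing regulator, was above background in C6 alone, at 5.60. Its relative Esrp2 read 3.72 for C5F, 3.48 for C6 and 3.65 for N1 as for L2, near-equal values of which only the first was called above background. These genes were picked after their values were seen. Only Tgfb3 passed the filter on dim probes, so none of the others was tested between the classes.

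Probes of the same UniGene cluster as Zeb2 and Fn1 that carry no gene symbol were near background on all 5 arrays.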
